A study of Drosophila melanogaster with 6 samples.

Results

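The 9 genes described here encode receptors and partner proteins with which fly glia and blood cells (hemocytes) take up dying cells, axon debris and microbes. They are drpr, ced-6, NimC1, NimC2, NimC3, NimC4, NimB1, NimB4 and eater, chosen by name as draper pathway and Nimrod family genes, and all 9 were found by FlyBase identifier among the 15886 rows of the deposited expression table. Draper, the product of drpr, is a transmembrane receptor on glia and macrophages and the fly counterpart of CED-1 of Caenorhabditis elegans. It recognises dying cells and degenerating axons, and the adaptor Ced-6 couples it to uptake. The Nimrod proteins carry repeats of a cysteine-rich module: those of type C and Eater are mostly surface receptors of phagocytes, and those of type B are secreted.

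The RNA was of adult Drosophila melanogaster heads, taken on day 7 of RNA interference, which RU486 in the food had induced. All flies carried TubGS, a GeneSwitch driver under a tubulin promoter that is active in most cells once RU486 is given, so a difference in these libraries cannot be placed in glia or hemocytes. The RNAi-GLAD group (3 libraries, genotype TubGS>RNAi-GLAD) expressed the construct named GLAD, and the RNAi-Ctrl group (3 libraries, genotype TubGS>RNAi-GFP) a construct against GFP, which flies lack; neither sex nor exact age is given. Each library pooled 100 brains per the labels' protocol, although the tissue is labelled a head. Photoreceptor genes were abundant (ninaE, the main rhodopsin, at 25152 to 26327 FPKM), as in tissue that includes the eye. Since the gene behind the name GLAD is not stated in the labels, its own level is not reported. Nothing says that the replicates came from separate cultures, and the p-values then reflect just the variation among these libraries, possibly technical variation alone.

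Levels are FPKM, fragments per kilobase of gene, scaled to library size. The steps between low values implied 22.0 to 29.5 M fragments per library. Where a gene has 3 values for a group, they stand in the order of its libraries 1, 2 and 3. The libraries labelled RNAi-Ctrl 3 and RNAi-GLAD 3 stood apart from their groups. Of the 527 genes called between the libraries numbered 1 and 2, 522 had the opposite sign between the libraries numbered 3. The sign compares these 2 libraries with each other and does not show that each stood with the group it is not labelled for. Whether their labels were exchanged was not tested. Both the 6-library results and the directions below depend on how the libraries are labelled. The members are given for all 6 libraries and for the 4 libraries numbered 1 and 2. Other genes are described in the 4 libraries, with 6-library values beside those called and the lists, and every direction called rests on the labels of those 4 libraries. Differences were tested with limma on log2(FPKM + 1) across all genes with a mean of at least 1 FPKM, with Benjamini-Hochberg adjustment and a threshold of 0.05. With 2 libraries per group chosen after the data were known, these p-values describe the 4 libraries and are not an independent repeat.

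The level per length differed widely among the members. From the highest median to the lowest they stood in the order ced-6 (133 FPKM), drpr (51.4), NimC1 (27.2), NimB4 (20.5), NimB1 (10.6), eater (5.84), NimC4 (3.51), NimC2 (2.85) and NimC3 (0.241). Between neighbours in this order the ranges over the 6 libraries overlapped for NimC1 and NimB4, for eater and NimC4, and for NimC4 and NimC2, and were apart for the other 5 pairs. The adaptor exceeded its receptor in every library, with a ced-6 to drpr ratio from 1.84 to 3.22. NimC4 had the widest range among the 8 members that passed the filter, its highest library at 6.47 times the lowest, while ced-6 varied least (1.10 times). NimC3 did not pass the filter on low values in either set of libraries and was not tested.

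**Figure D1:**
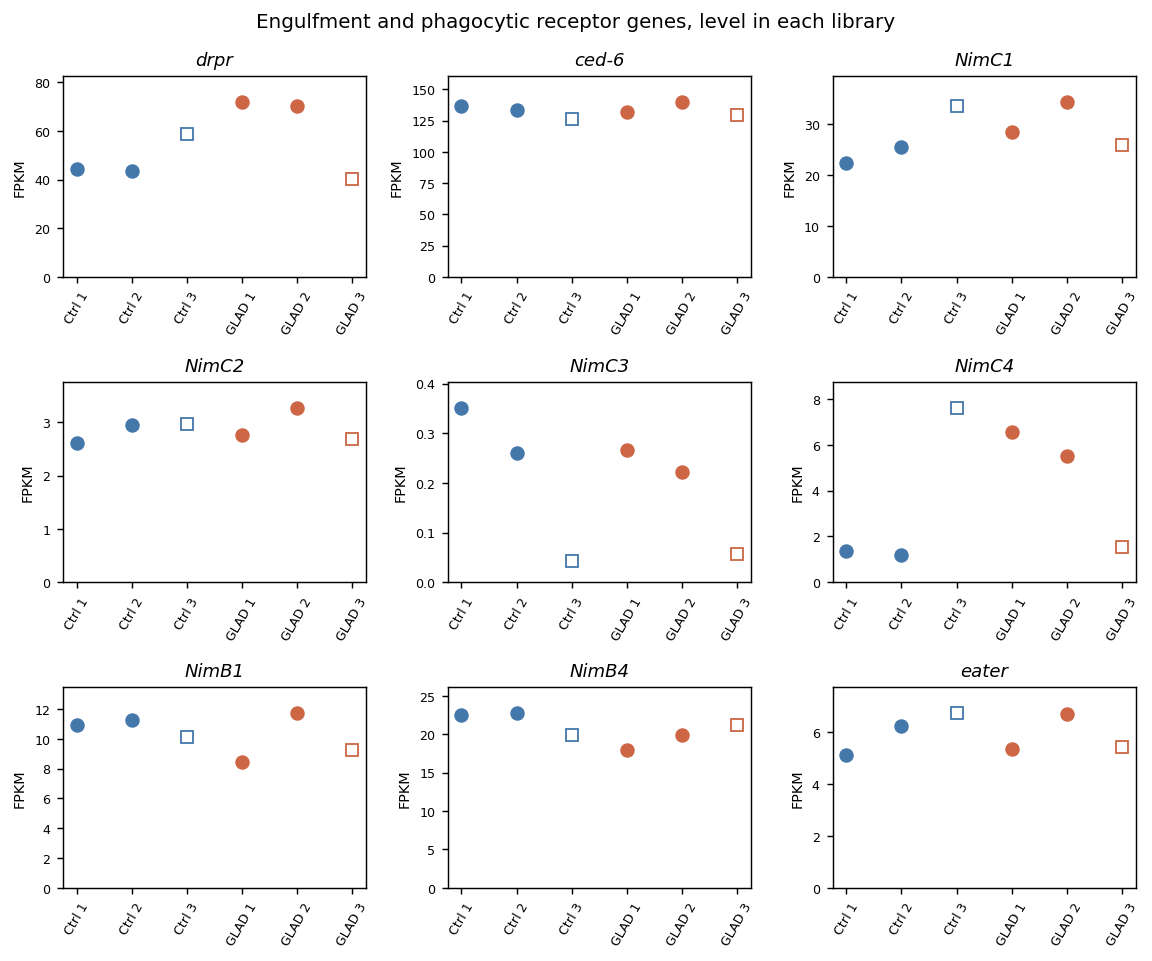
FPKM (vertical axes, from 0) of each of the 9 members in each library, blue for RNAi-Ctrl and orange for RNAi-GLAD, with open squares for the libraries numbered 3 and no error bars, since every point is a single library. NimC4 sits between 5.50 and 7.61 FPKM in RNAi-GLAD 1, RNAi-GLAD 2 and the library labelled RNAi-Ctrl 3 and between 1.18 and 1.52 FPKM in the other 3 libraries, while ced-6 stays between 126 and 139 FPKM.

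As labelled, with 3 libraries per group, limma called 0 of the 8 tested members, against a background of 0.0% of all 9631 genes (0 genes, with 112 at an unadjusted p under 0.05, or 1.16%). None of the 8 had an unadjusted p under 0.05, the groups overlapped for each of them (4.0% of all tested genes had groups apart), and each adjusted p was 0.999. The interval of the difference was narrow for some members and wide for others. For ced-6 the 95% interval of the log2 fold change (RNAi-GLAD minus RNAi-Ctrl) ran from -0.13 to 0.16, and for eater from -0.34 to 0.26. For drpr it ran from -0.34 to 0.88 and for NimC4 from -1.14 to 2.12, so the 6 libraries leave a wide range of possible differences for these receptors.

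In the 4 libraries numbered 1 and 2, limma called 2 of the 8 tested members, drpr and NimC4, both higher in RNAi-GLAD, against a background of 5.45% of 9661 genes called (4.10% higher and 1.36% lower). The groups were apart for drpr, NimC1 and NimC4 (higher) and NimB4 (lower), 4 of the 8, where 56.5% of all tested genes had groups apart. The median log2 fold change of the 8 members was 0.08, and that of all tested genes 0.02. Fewer cells of a type and less RNA per cell cannot be told apart in libraries of whole heads.

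The receptor gene drpr (FBgn0027594, minus strand of chromosome arm 3L, 1715595 to 1731107 in BDGP6, 6 annotated transcripts) measured 44.2, 43.7 and 58.6 FPKM in the RNAi-Ctrl libraries against 71.7, 70.2 and 40.2 FPKM for RNAi-GLAD. The libraries RNAi-GLAD 1 and 2 were the highest and the library labelled RNAi-GLAD 3 the lowest, and the library labelled RNAi-Ctrl 3 lay between them. Between groups in the 4 libraries, drpr rose from 44.0 ± 0.380 to 70.9 ± 1.03 FPKM (SD, n = 2 each), with a ratio of 1.61 and a log2 fold change of 0.68 ± 0.04 (SE; 95% interval 0.56 to 0.80; limma adjusted p = 0.0135). Between the libraries numbered 3 the log2 difference was -0.53, the opposite way. Without RNAi-Ctrl 1 or without RNAi-Ctrl 2 drpr was not called (log2 fold change 0.69 and 0.67). It stayed called without RNAi-GLAD 1 or without RNAi-GLAD 2 (0.66 and 0.69). Each of these fits leaves a single library in a group, and calls over all genes fell there too. A call lost in such a fit is thus not particular to drpr, nor to the genes below.

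Several genes share the drpr locus. CG18171 lies within drpr on the same strand with 0 shared exonic bases, and measured 2.82, 2.84 and 3.86 FPKM in the RNAi-Ctrl libraries against 4.23, 4.07 and 2.55 FPKM for RNAi-GLAD. As for drpr, RNAi-GLAD 1 and 2 were its highest libraries and the library labelled RNAi-GLAD 3 its lowest. Its log2 fold change in the 4 libraries was 0.43, and limma did not call it (adjusted p = 0.0831). Oseg4, which shares 115 exonic bases with drpr on the same strand, stood at 0.565 to 0.794 FPKM in all 6 libraries. CG12035, on the opposite strand with 0 shared exonic bases, was listed at 0 to 0.953 FPKM. The part of these genes in the drpr values was not tested.

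The NimC4 gene (FBgn0260011, plus strand of 2L, 14047582 to 14048863) encodes the receptor also named Six-microns-under, through which glia and macrophages bind dying cells ahead of Draper. It measured 1.38, 1.18 and 7.61 FPKM in the RNAi-Ctrl libraries against 6.55, 5.50 and 1.52 FPKM for RNAi-GLAD. RNAi-GLAD 1 and 2 and the library labelled RNAi-Ctrl 3 were high and the other 3 low, with no value between 1.52 and 5.50 FPKM. At its annotated exon length of 1282 bases these levels were worth about 43.9, 35.9 and 288 fragments in RNAi-Ctrl and 196, 159 and 42.9 in RNAi-GLAD, so the low values do not rest on single reads. NimC4 rose in the 4 libraries from 1.28 ± 0.145 to 6.02 ± 0.738 FPKM (SD, n = 2 each), a ratio of 4.72 and a log2 fold change of 1.62 ± 0.13 (SE; 95% interval 1.26 to 1.98; limma adjusted p = 0.0195). On this scale the change of a low gene is understated, and with a pseudocount of 0.1 the log2 fold change was 2.15. Between the libraries numbered 3 the ratio was the other way, 5.0 times higher in the library labelled RNAi-Ctrl 3. NimC4 was not called without RNAi-Ctrl 1 or without RNAi-Ctrl 2 (log2 fold change 1.69 and 1.56), where calls over all genes fell too. Like drpr, it stayed called without RNAi-GLAD 1 or without RNAi-GLAD 2 (1.52 and 1.73).

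NimC4 has a single exon that lies within nAChRalpha5, an acetylcholine receptor subunit gene on the same strand, with 0 exonic bases in common. The host gene nAChRalpha5 measured 22.1, 20.4 and 18.7 FPKM in the RNAi-Ctrl libraries against 20.6, 20.2 and 18.35 FPKM for RNAi-GLAD. Its log2 fold change in the 4 libraries was -0.05 (limma adjusted p = 0.633), with overlapping groups. The ratio of NimC4 to its host gene was 0.0625, 0.0577 and 0.407 in the RNAi-Ctrl libraries against 0.318, 0.272 and 0.0828 for RNAi-GLAD. The part of host gene reads in the NimC4 values was not tested.

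The adaptor gene ced-6 (FBgn0029092, minus strand of 2R, 9434669 to 9444937), whose product binds the intracellular part of Draper, did not pass the test. It measured 137, 134 and 126 FPKM in the RNAi-Ctrl libraries against 132, 139 and 129 FPKM for RNAi-GLAD, with overlapping groups. Its log2 fold change in the 4 libraries had a 95% interval of -0.14 to 0.14 (limma adjusted p = 0.969), which lies below that of its receptor (0.56 to 0.80). The ratio of ced-6 to drpr was 3.10, 3.06 and 2.16 in the RNAi-Ctrl libraries against 1.84, 1.99 and 3.22 for RNAi-GLAD.

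**Figure D2:**
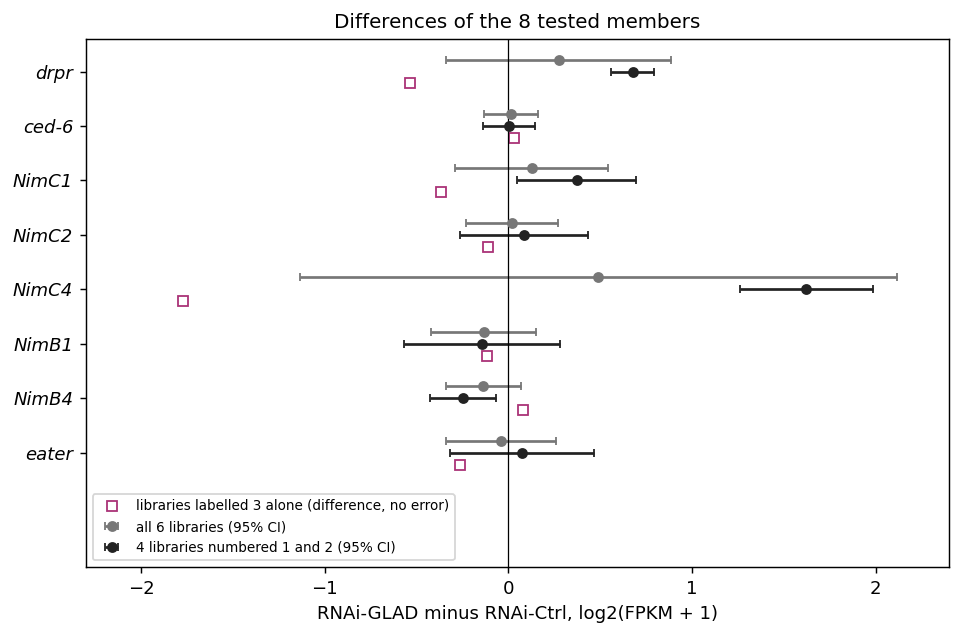
Difference of log2(FPKM + 1), RNAi-GLAD minus RNAi-Ctrl (horizontal axis), of the 8 tested members in all 6 libraries (grey) and in the 4 libraries numbered 1 and 2 (black), with limma 95% intervals, and between the single libraries numbered 3 (open squares, no error). For drpr and NimC4 the black points are at 0.68 and 1.62 and the squares at -0.53 and -1.77, and the grey intervals of all 8 members include 0.

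NimC1 and eater encode receptors by which plasmatocytes, the phagocytic hemocytes, take up bacteria. NimC1 (FBgn0259896, 2L, 13973158 to 13976769) measured 22.3, 25.6 and 33.6 FPKM in the RNAi-Ctrl libraries against 28.5, 34.2 and 25.9 FPKM for RNAi-GLAD. Its highest values were in RNAi-GLAD 2 and the library labelled RNAi-Ctrl 3, and as labelled the groups overlapped. In the 4 libraries the log2 fold change was 0.37 ± 0.12 (SE; 95% interval 0.05 to 0.69), which limma did not call (adjusted p = 0.161). For eater (FBgn0243514, 3R, 27095867 to 27099679) the RNAi-Ctrl libraries measured 5.12, 6.24 and 6.73 FPKM and the RNAi-GLAD libraries 5.36, 6.72 and 5.44 FPKM, with overlapping groups (4 libraries: log2 fold change 0.07, 95% interval -0.32 to 0.47, limma adjusted p = 0.802).

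Hemocyte genes outside the members gave the frame for these receptors. Of 13 other hemocyte markers 12 had a row and 11 were tested in the 4 libraries. Limma called 0 of them (5.45% of all tested genes were called), with 3 at an unadjusted p under 0.05 (24.9% of all tested genes). In sign 7 log2 fold changes were positive and 4 negative, with a median of 0.02 (all 6 libraries: 8 positive, 3 negative, median 0.01). The summed level of the 12 was 644 to 669 FPKM in RNAi-Ctrl and 630 to 692 FPKM in RNAi-GLAD. Its largest part was atilla, at 135 to 171 FPKM, so the sum weighs the markers unevenly. He, too low to be tested, stood at 0.352 to 0.435 FPKM in RNAi-Ctrl and 0.471 to 0.791 FPKM in RNAi-GLAD. For the 11 tested markers the groups overlapped in all 6 libraries. The 3 hemocyte markers with an unadjusted p under 0.05 in the 4 libraries went both ways. They were lz (-0.41, limma adjusted p = 0.0814), atilla (-0.22, 0.0853) and Tig (0.54, 0.0928). Hml, a clotting factor used as a plasmatocyte marker, had a log2 fold change of 0.07. Relative to Hml, NimC1 was at 0.515, 0.517 and 0.558 in the RNAi-Ctrl libraries against 0.652, 0.628 and 0.476 for RNAi-GLAD, while eater kept to 0.10 to 0.126 in all 6 libraries.

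NimC2 and NimC3 were the receptors with the lowest medians, although NimC4 lay below NimC2 in 3 of the 6 libraries. NimC2 (FBgn0028939, plus strand of 2L, 13980126 to 13983269) measured 2.61, 2.94 and 2.97 FPKM in the RNAi-Ctrl libraries against 2.76, 3.27 and 2.68 FPKM for RNAi-GLAD, and the groups overlapped. Its log2 fold change in the 4 libraries was 0.09 (95% interval -0.26 to 0.44, limma adjusted p = 0.737). It shares 527 exonic bases with rk, a hormone receptor gene on the opposite strand at 1.07 to 1.5 FPKM, and since no source used here gives the strand setting of the counting, reads of that stretch cannot be told apart. NimC3 (FBgn0001967, minus strand of 2L, 14019357 to 14020208) measured 0.351, 0.261 and 0.0422 FPKM in the RNAi-Ctrl libraries against 0.267, 0.221 and 0.0565 FPKM for RNAi-GLAD. At 852 exonic bases these values stood for about 1.06 to 7.42 fragments. Both libraries numbered 3 had the lowest values, at a depth where no difference could be detected, and 814 of those bases overlap an antisense RNA on the other strand.

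The secreted members NimB1 and NimB4 had negative log2 fold changes, and neither passed. NimB4, which helps phagocytes clear dying cells, lies on the minus strand of 2L (FBgn0028542, 13968280 to 13969976). It measured 22.5, 22.7 and 19.9 FPKM in the RNAi-Ctrl libraries against 17.9, 19.9 and 21.1 FPKM for RNAi-GLAD. RNAi-Ctrl 1 and 2 were the highest libraries, and the library labelled RNAi-GLAD 3 came next. Its log2 fold change in the 4 libraries was -0.25 ± 0.07 (SE; 95% interval -0.42 to -0.07; limma adjusted p = 0.121). NimB1 (FBgn0027929, plus strand of 2L, 13963507 to 13965088) measured 10.95, 11.3 and 10.2 FPKM in the RNAi-Ctrl libraries against 8.47, 11.7 and 9.28 FPKM for RNAi-GLAD, with the highest and the lowest value both in RNAi-GLAD (4 libraries: log2 fold change -0.14, 95% interval -0.57 to 0.28, limma adjusted p = 0.639). It shares 77 exonic bases with NimB2 on the opposite strand, which stood 14.2 to 20.8 times higher, and reads of that stretch cannot be told apart.

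Of the 9 members 6 lie in the Nimrod cluster on 2L, in which 10 Nimrod genes span 91325 bases. The other Nimrod genes there are NimA, NimB2, NimB3 and NimB5. In the 4 libraries 1 of the 3 of them that were tested was called, where 5.45% of all tested genes were. This gene, NimB3 (FBgn0054003, 13967464 to 13967985), rose from 14.6 ± 0.430 to 21.3 ± 1.88 FPKM (SD, n = 2 each; log2 fold change 0.51 ± 0.08, SE; limma adjusted p = 0.0460). It measured 14.9, 14.3 and 31.1 FPKM in the RNAi-Ctrl libraries against 22.6, 19.95 and 15.1 FPKM for RNAi-GLAD, so its highest value was in the library labelled RNAi-Ctrl 3, as for NimC4. In all 6 libraries its log2 fold change was 0.01 (limma adjusted p = 0.999). The 4-library call was lost without each of the 4 libraries in turn (log2 fold change 0.42 to 0.60). It was also lost without the filter on low values (limma adjusted p = 0.0941) and without the mean-variance trend (0.0851). Calls over all genes fell in each of these fits too.

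The neighbours of NimB3 had other values. NimB2, the Nimrod gene with the highest level (153 to 200 FPKM), had a log2 fold change of -0.26 (limma adjusted p = 0.12), and NimB5, whose product acts as a fat body signal to hemocytes, one of -0.03 (limma adjusted p = 0.904). NimA, at 0.266 to 0.664 FPKM, did not pass the filter. Among genes of the same stretch that are not Nimrod genes, bgm, an acyl-CoA synthetase gene next to NimC3, measured 59.7, 66.3 and 39.1 FPKM in the RNAi-Ctrl libraries against 24.6, 36.8 and 64.6 FPKM for RNAi-GLAD, low in the libraries where NimC4 was high (4 libraries: log2 fold change -1.04, limma adjusted p = 0.0728).

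**Figure D3:**
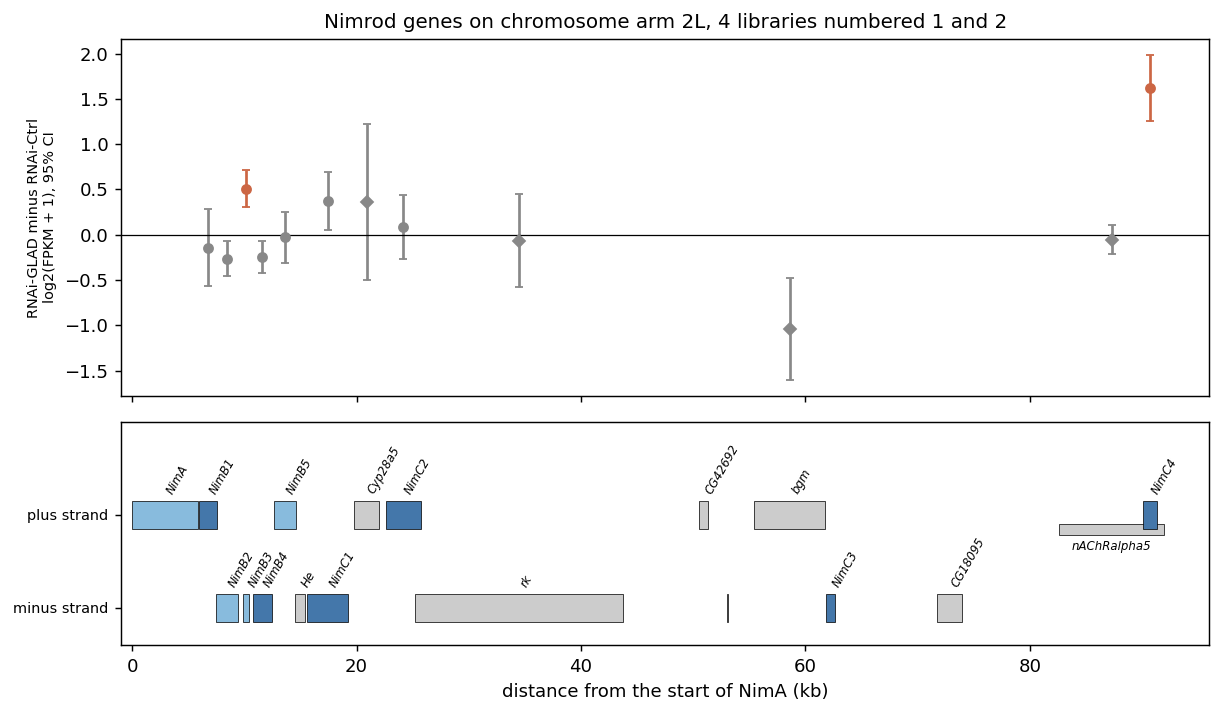
Upper panel, log2 fold change with limma 95% intervals (4 libraries numbered 1 and 2) of the tested genes against distance from the start of NimA in kb, with circles for Nimrod genes, diamonds for others and orange for called genes. Lower panel, the genes with a row in the table on each strand, dark blue for members, light blue for other Nimrod genes and grey for the rest, nAChRalpha5 being cut at the right edge. The called genes NimB3 (0.51) and NimC4 (1.62) lie far apart in the cluster, and the Nimrod genes between them have intervals from -0.42 to 0.69.

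Outside the receptors, the molecules that Draper binds went in both directions. Of 3 ligands and bridging molecules, all tested, 1 was called higher and 1 lower in the 4 libraries. Of all tested genes 4.10% were called higher and 1.36% lower. CaBP1, an endoplasmic reticulum protein that is exposed on dying cells as a Draper ligand, measured 36.5, 29.6 and 143 FPKM in the RNAi-Ctrl libraries against 145, 179 and 44.4 FPKM for RNAi-GLAD. RNAi-GLAD 1 and 2 and the library labelled RNAi-Ctrl 3 were the high libraries, as for NimC4. It rose in the 4 libraries with a log2 fold change of 2.26 ± 0.15 (SE, limma adjusted p = 0.0141). CaBP1 was not called without RNAi-Ctrl 1 or without RNAi-Ctrl 2, where the log2 fold change was 2.4 and 2.11 and calls over all genes fell too. In all 6 libraries the log2 fold change was 0.95 (limma adjusted p = 0.999).

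The other Draper ligand of this kind, Pretaporter (prtp), also an endoplasmic reticulum protein, measured 51.8, 51.1 and 36.8 FPKM in the RNAi-Ctrl libraries against 38.7, 39.2 and 46.5 FPKM for RNAi-GLAD. It fell in the 4 libraries, with a log2 fold change of -0.39 ± 0.04 (SE, limma adjusted p = 0.0268). The call was lost without each of the 4 libraries in turn (log2 fold change -0.40 to -0.38). Without the mean-variance trend it was also lost (limma adjusted p = 0.0620). Calls over all genes fell in each of these fits too. In all 6 libraries the log2 fold change was -0.15 (limma adjusted p = 0.999). The ratio of CaBP1 to prtp thus lay at 0.579 to 0.956 in RNAi-Ctrl 1 and 2 and the library labelled RNAi-GLAD 3, and at 3.74 to 4.57 in the other 3 libraries. The bridging molecule gene orion had a log2 fold change of -0.24 (limma adjusted p = 0.127).

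Limma called 0 genes of the other engulfment lists in the 4 libraries (5.45% of all tested genes) and 0 in all 6 (0.0% of all tested genes). In the signalling list (13 of 14 genes with a row, all 13 tested) 9 log2 fold changes were positive and 4 negative, with a median of 0.20 against 0.02 over all tested genes, and 6 had an unadjusted p under 0.05, where 24.9% of all genes did. In all 6 libraries 9 were positive and 4 negative, with a median of 0.07 and 0 at an unadjusted p under 0.05. The 6 genes in the 4 libraries were the small GTPases Cdc42 (0.25, limma adjusted p = 0.0644), Rac2 (0.37, 0.0724) and Rac1 (0.21, 0.106), which drive the actin cup, puc (0.23, 0.138) and Jra (0.27, 0.149) of the JNK pathway, and Crk (-0.15, 0.138), an adaptor upstream of Rac. Puc is a phosphatase that restrains JNK, and Jra is the fly Jun protein. Shark, the kinase that binds Draper, was at 4.68 ± 0.434 and 5.51 ± 0.260 FPKM (SD, n = 2 each; limma adjusted p = 0.279). Stat92E, which raises drpr transcription after axon injury, had a log2 fold change of -0.08 (limma adjusted p = 0.728). The JNK kinase gene bsk, at 58.6 to 60.3 FPKM in all 6 libraries, had one of -0.01 (0.895), with overlapping groups.

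Genes of phagosome formation and maturation (7 of 8 with a row, all tested) had 4 positive and 3 negative log2 fold changes. Their median was 0.01, and 2 had an unadjusted p under 0.05, where 24.9% of all tested genes did (all 6 libraries: 2 positive, 5 negative, median -0.03, 0 under 0.05). Rab7, which marks late phagosomes, was at 0.17 (limma adjusted p = 0.110) and Rab14 at -0.15 (0.158). Among the other scavenger and phagocytic receptors 9 of 10 had a row, and 6 were tested in the 4 libraries and 5 in all 6 (4 positive, 1 negative, median 0.04, 0 with an unadjusted p under 0.05). Croquemort (crq), a CD36-type receptor for dying cells, was at 83.9 to 96.3 FPKM in all 6 libraries (log2 fold change 0.10, limma adjusted p = 0.443). Itgbn, an integrin subunit that works beside Draper, measured 0.482, 0.626 and 1.24 FPKM in the RNAi-Ctrl libraries against 1.54, 1.35 and 0.312 FPKM for RNAi-GLAD. It passed the filter in the 4 libraries only through its RNAi-GLAD values, so its difference there is given as a description (log2 fold change 0.66), and limma did not call it (adjusted p = 0.185). Of the thioester proteins, which can coat microbes for uptake, 4 of 5 had a row and 3 were tested. They were Tep2 (0.43, limma adjusted p = 0.121), Tep4 (0.37, 0.113) and Tep3 (-0.12, 0.232). Of these 3 genes 2 had an unadjusted p under 0.05, where 24.9% of all tested genes did (all 6 libraries: 2 positive, 1 negative, median 0.13, 0 under 0.05).

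**Figure D4:**
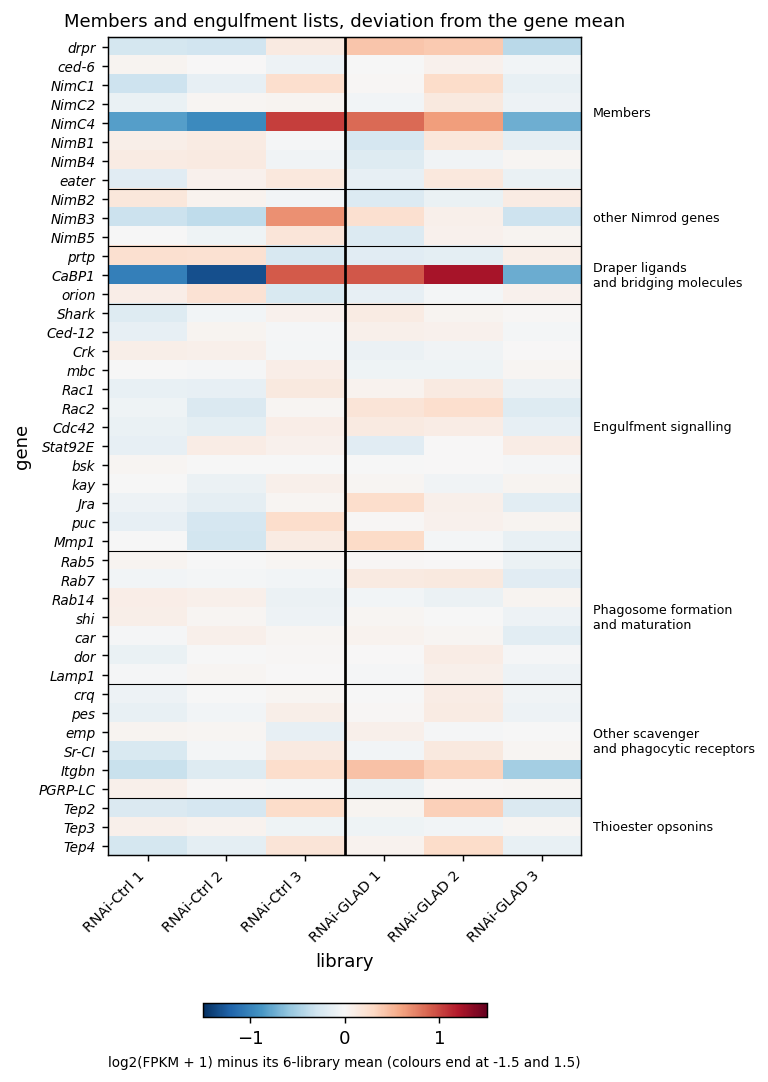
Each row is a gene tested in the 4 libraries and each column a library, with RNAi-Ctrl left and RNAi-GLAD right of the line, and the colour gives log2(FPKM + 1) minus the mean of that gene over the 6 libraries. NimC4 and CaBP1 show the widest colours, red in RNAi-GLAD 1, RNAi-GLAD 2 and the library labelled RNAi-Ctrl 3, and most signalling and phagosome genes stay near white.

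Markers of other cells were read in the same libraries. Of 14 glial markers 12 were tested. Limma called 0 in the 4 libraries (5.45% of all tested genes were called), with 2 at an unadjusted p under 0.05 (24.9% of all tested genes). Of the 12 markers 11 had a negative log2 fold change there (median -0.11, against 0.02 over all tested genes). Between the libraries numbered 3 the sign was opposite for 11 of the 12. In all 6 libraries 8 of the 12 were negative (median -0.06). The glial transcription factor repo was at 24.0 to 28.8 FPKM in all 6 libraries, and the summed level of the glial list was 1388 to 1578 FPKM in RNAi-Ctrl and 1425 to 1504 FPKM in RNAi-GLAD. All 9 tested neuronal markers had negative values (median -0.11, and -0.05 in all 6 libraries). Between the libraries numbered 3 the sign was opposite for 8 of the 9 neuronal markers. Limma called 0 of the 9 in the 4 libraries, and 2 had an unadjusted p under 0.05, where 24.9% of all tested genes did. Fat body genes were called both ways in the 4 libraries, fit (2.25) and Apoltp (0.80) higher and tsl (-0.52) lower among 8 tested. Of all tested genes 4.10% were called higher and 1.36% lower. The summed level of the fat body list was 782 to 1328 FPKM in RNAi-Ctrl and 692 to 973 FPKM in RNAi-GLAD. In RNAi-Ctrl 1 the yolk protein genes Yp1, Yp2 and Yp3 stood apart at 296, 98.6 and 343 FPKM, against 0.735 to 3.28, 0.371 to 2.25 and 53.5 to 61.2 FPKM in the other 5 libraries. RNAi-Ctrl 1 enters every test of the 4 libraries. The labels give no sex, and whether the sex make-up differed between libraries was not tested. The 3 fat body calls were lost without RNAi-Ctrl 1 or without RNAi-Ctrl 2. There the log2 fold changes were 2.25 for fit, 0.80 to 0.81 for Apoltp and -0.58 to -0.46 for tsl. The call of tsl was also lost without RNAi-GLAD 1 and without RNAi-GLAD 2 (log2 fold change -0.52 each). Without the filter tsl was not called (limma adjusted p = 0.0514), and without the trend neither tsl (0.0628) nor Apoltp (0.0514) was. Calls over all genes fell in each of these fits too. As labelled, with all 6 libraries, 0 of the 8 were called. There the log2 fold changes were 0.66 for fit, 0.22 for Apoltp and -0.17 for tsl (limma adjusted p = 0.999 each). The highest fit value, 97.4 FPKM, was in the library labelled RNAi-Ctrl 3. The testis and accessory gland list was uneven within groups, at 3.49 to 54.3 FPKM in RNAi-Ctrl and 1.10 to 78.2 FPKM in RNAi-GLAD, with 5 of 9 genes listed at 0 in some library. The part of fat body or other cells in the drpr and NimC4 values was not tested.

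Genes whose pattern over the 6 libraries was most like that of drpr and NimC4 were taken from the other 9630 genes with a mean of at least 1 FPKM, by the root mean square difference of centred log2(FPKM + 1) values. Nearest to drpr were CG6357 (0.03), CG3505 (0.03) and Dlip1 (0.04). CG6357 measured 78.9, 76.2 and 102 FPKM in the RNAi-Ctrl libraries against 124, 128 and 72.0 FPKM for RNAi-GLAD. Nearest to NimC4 were lncRNA:CR43264 (0.17), eco (0.18) and sel (0.20). The gene eco measured 12.4, 12.02 and 37.8 FPKM in the RNAi-Ctrl libraries against 36.5, 42.1 and 12.9 FPKM for RNAi-GLAD. Since these genes were chosen by their pattern, their likeness to drpr or NimC4 in any library follows from the choice.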

How the data were processed

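RNA of 6 libraries, 3 per group, was sequenced as 150 bp read pairs, per the labels' protocols. The authors deposited FPKM values, 1 column per library; per the submitters' processing notes TopHat was used, with the build names BDGP6 and dm6. The counting tool, its strand setting and its handling of multi-mapping reads were not given in the sources used here, and values of overlapping genes and close copies are uncertain. Of 15682 FlyBase identifiers 15002 matched a symbol. Coordinates are from the Ensembl release 115 annotation of BDGP6. No sequence of the members was read. Library totals of 22.0 to 29.5 M fragments were inferred from genes with 1 transcript, where 79.7% to 84.2% of low values lay within 0.1 of a whole read (20% by chance).

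Tests used R 4.3.3 with limma 3.58.1 (lmFit, eBayes with a trend) on log2(FPKM + 1), two-sided and adjusted over all genes. They were also run on simulated data with independent noise. That simulation held no libraries departing from their group, so it does not bear on the libraries numbered 3. FPKM carry no counts, so no count model was fitted. The members, the lists, the set of 4 libraries and the alternatives were chosen with earlier results of these data known. All members and all called genes of the lists are named, with the 3 genes nearest to drpr and NimC4. Genes of smallest p were named for some lists only. Others, such as Hml, repo, bsk, Stat92E and crq, were named for their known role and not for their p. The genes bgm, CG18171 and others of position were named for their place. Alternatives covered the pseudocount, filter, scaling, trend, replicate block, threshold, array weights and each library left out. Fits without both libraries of a number were added after the values were seen. Figures used Python 3.11.15 and matplotlib 3.10.9.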

Additional observations from a re-analysis of the deposited data

How the results depend on the processing

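As labelled, 0 members were called under every alternative run, and with array weights. In the 4 libraries numbered 1 and 2 the count of 2 was 1 with a mean of at least 5 FPKM, where NimC4 was not tested, and 0 at the threshold of 0.01, and ranged from 0 to 2 without each library. The log2 fold changes of drpr and NimC4 stayed positive in the 4 libraries under all alternatives (0.65 to 0.69 and 1.52 to 2.15). As labelled, NimC4 turned to -0.0961 and -0.0537 without both libraries numbered 1 or 2, and ced-6, NimC1 and NimC2 to -0.00999, -0.0129 and -0.0261 without both numbered 2; the cause was not tested. Members near 0 changed sign: NimC2 as labelled with quantile normalization (-0.00597), and in the 4 libraries ced-6 with median-of-ratios scaling (-0.0221) and, with quantile normalization, ced-6 (-0.00773), NimC2 (-0.0107) and eater (-0.00423). Without each library as labelled, drpr ranged from 0.132 to 0.542 (highest without RNAi-GLAD 3) and NimC4 from 0.138 to 1.13 (highest without RNAi-Ctrl 3), and with array weights they were at 0.553 and 1.36, not called; ced-6 ranged from -0.0190 to 0.0382, NimC2 from -0.0454 to 0.0619 and eater from -0.135 to 0.0338. In the 4 libraries ced-6 ranged from -0.0337 to 0.0432, NimC2 from -0.00422 to 0.178, eater from -0.0656 to 0.215 and NimB1 from -0.355 to 0.0690; there a group left with 1 library was assumed to vary like the other. After each gene's group average was subtracted, same-numbered libraries correlated at -0.354, -0.404 and -0.460. Each average includes a library numbered 3, which stood apart, so each value carries that departure. These correlations therefore cannot show whether the numbers mark pairs. The main tests did not use the numbers as pairs. With the replicate block 0 members were called as labelled and 2 in the 4 libraries. Over all genes the 4-library count of 527 was 743 of 7551 genes with a mean of at least 5 FPKM, 540 with a pseudocount of 0.1, 254 without a filter, 165 without the trend, 17 at 0.01, 512 with the block, and 1 to 329 without each library. Depth limits NimC3, at 1.06 to 7.42 fragments.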
